A study of Mus musculus with 4 samples.

Results

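Solute carriers are membrane proteins that move small molecules such as amino acids, sugars, ions, nucleosides and organic acids across the plasma membrane, the membranes of organelles and the inner mitochondrial membrane. The genes are named by family (Slc1, Slc2 and so on, with Slco for the organic anion transporting polypeptides), and members of a family mostly share a class of substrate. Muscle stem cells (MuSCs) at rest are small cells with a low metabolic rate, and nutrient uptake is known to increase when such cells enter growth and division. The genes described here are the protein-coding members of these families that were counted at least 40 times over the 4 libraries together, a rule that used abundance summed over both surgeries. There were 101 such genes of 251 protein-coding Slc and Slco genes in the deposited table, which holds 19353 genes in all, and 150 lay under 40. At the edge, Slc1a4 and Slc25a38 had a total of 40 unique molecular identifiers (UMIs), and Slc25a16, Slc27a4 and Slc35b3 had 39.

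MuSCs came from the plantaris muscle of Pax7-CreERT2:Rosa-YFP mice, in which the Pax7 promoter drives a tamoxifen-dependent Cre recombinase that switches on yellow fluorescent protein (YFP) in satellite cells and their descendants, and they were sorted by YFP. The sham group had sham surgery. In the tenotomy group the tendons of the neighbouring gastrocnemius and soleus were cut, which overloads the plantaris, and cells were taken 4 days after surgery. Each tube took 100 cells and became 1 CEL-Seq2 library, 2 per group, and no source says whether these were from separate mice, so that p-values measure only the spread between these samples. A UMI marks 1 captured molecule at its poly(A) end, so that a count does not grow with transcript length.

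Sequencing gave 269683 and 260488 UMIs for sham against 387955 and 483528 for tenotomy. The 101 genes took 3307 and 3162 UMIs in sham against 4255 and 5347 after tenotomy, or 1.23% and 1.21% of the sham libraries and 1.10% and 1.11% of the tenotomy libraries. Levels are given below as UMIs per library and as normalized CPM, that is the UMIs of a gene scaled to the same total over the tested genes in every library, with edgeR's TMM factors (0.909 and 0.908 for sham, 1.08 and 1.12 for tenotomy). A count of 3, taken as the floor, was worth 13.1 and 13.6 normalized CPM in the sham libraries and 7.80 and 6.08 in the tenotomy libraries. In bulk RNA of 100 cells, fewer cells with a transcript and less of it per cell cannot be told apart.

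After tenotomy, 23 of the 97 genes with enough counts to be tested were higher and 28 were lower at an adjusted p under 0.1 (edgeR's quasi-likelihood test, adjusted over all 7228 genes tested), and 46 did not pass. Of all genes tested, 52.1% passed in either direction, 25.8% were higher and 26.3% were lower, close to the 52.6% of these 97 that passed. The median log2 fold change of the 97 was 0.054, close to the 0.051 of all tested genes. The substrate groups lay apart from each other: carriers of amino acids, glucose and organic anions had medians below that of all genes, and mitochondrial carriers had a median above it. The 4 untested genes included Slc7a6, Slc40a1 and Slc25a1. Of the 97 tested genes, 17 passed the filter on low counts through the deeper tenotomy libraries only, with no sham library over its cut. Another 2 passed through the sham libraries only, with no tenotomy library over it. The first 17 had little room to be called lower. These 17 held 12 of the 23 higher calls and none of the lower ones. The 78 genes with at least 1 library of each group over the cut had 11 higher, 26 lower and a median log2 fold change of -0.23. Of all 7228 tested genes, 1095 passed through the tenotomy libraries only and 202 through the sham libraries only. The calls and median of all genes were not computed without these, so the values of the 78 have no like background. The filter asks for 2 libraries over the cut, so a gene among the 78 could still depend on 1 group. The higher Slc25a24, Slc25a37, Slc25a46, Slc44a2 and Slc35a1 had 1 sham and 2 tenotomy libraries over it. The lower Slco2a1, Slc16a3, Slc15a2 and Slc25a25 had 2 sham libraries and 1 tenotomy library over it. With 2 libraries on each side the smallest two-sided p of an exact permutation test is 0.333, so each adjusted p borrows its spread from the other genes.

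Normalized values of the 2 tenotomy libraries lay wholly above those of the sham libraries for 36 of the 101 genes and wholly below for 39. Among all tested genes the shares were 37.5% above and 35.4% below, 72.9% together. Fold changes in these libraries fell with abundance, from a median log2 fold change of 0.53 in the least abundant of 10 equal bins of tested genes to -0.74 in the most abundant, and the size of a change therefore depends on the scale. Counted per tube with no scaling, the median log2 fold change of all genes was 1.01, with library sizes alone it was 0.33 and with upper-quartile factors it was 0.15. Of the 51 calls, 15 (6 higher and 9 lower) were made under all 7 scalings and tools tried, and each of these 15 was also made with any 1 library left out. Among the 15, Slc25a11 and Slc35a5 passed the filter through the tenotomy libraries only and Slc7a8 through the sham libraries only. Slc25a24 and Slc44a2 had 1 sham library over the cut, and Slco2a1, Slc16a3 and Slc15a2 had 1 tenotomy library over it. These genes, too, needed the group where they were high to pass. Per tube, only the 9 lower genes of the 15 were called lower. Leaving out each library in turn, 28 of the 51 calls were made every time. The strand setting of the counting is not given in the sources used here, and exons of several genes named below overlap those of another gene on the other strand, so reads of the neighbour may be part of their counts. Besides those described with their genes, these are Slc2a1 (Gm12868), Slc6a6 (Gm44981), Slc7a2 (Gm26584), Slc11a2 (Gm5475), Slc20a1 (Gm4430 and 9830144P21Rik), Slc20a2 (Smim19), Slc25a25 (Naif1), Slc25a37 (Gm27223 and Gm31748), Slc25a46 (B930094E09Rik), Slc30a1 (1700034H15Rik), Slc39a9 (Erh) and Slc4a1ap (Supt7l).

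**Figure D1:**
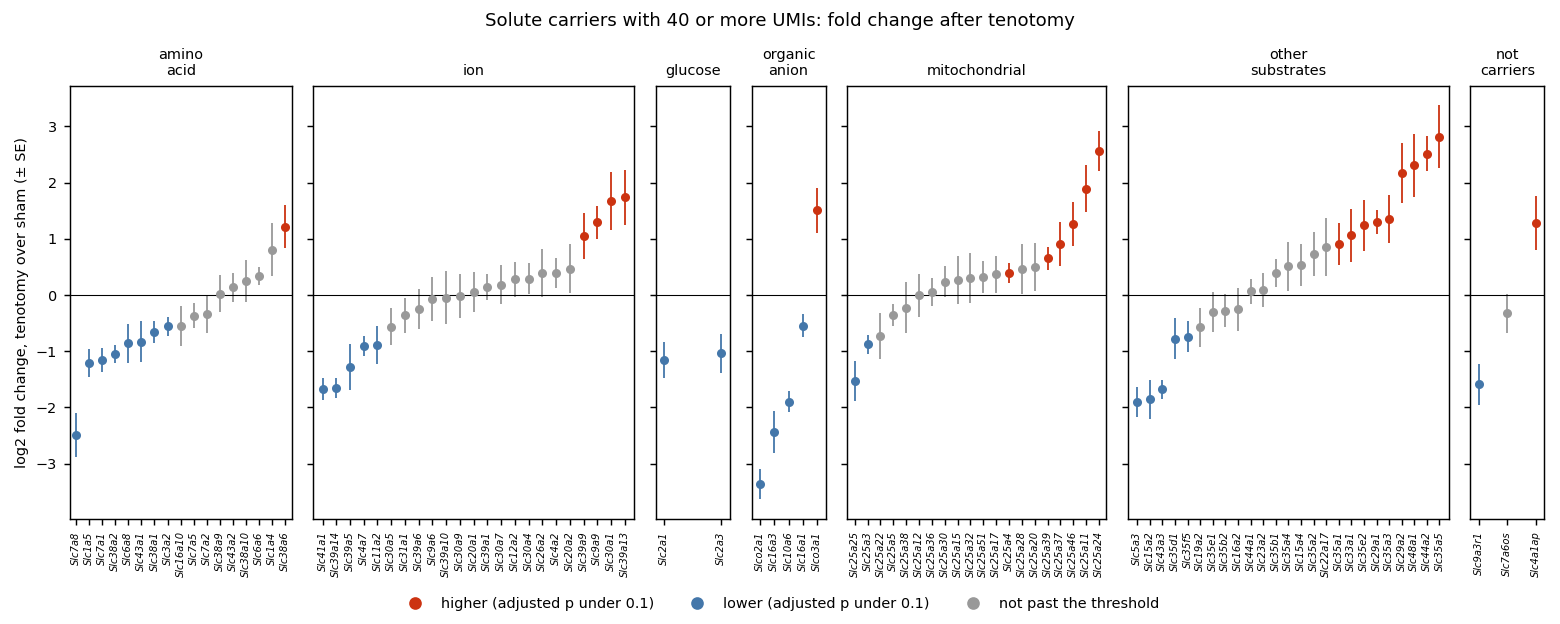
Log2 fold change of tenotomy over sham (vertical axis, bars are standard errors) for the tested carriers, grouped by substrate, with those past an adjusted p of 0.1 in colour. Of the organic anion carriers, 4 of 5 are below 0 and past the threshold, and of the mitochondrial carriers 6 of 20 are above 0 and past it; Slc35c2, with 0 UMIs in sham, and 1 ion carrier not reported here are not drawn.

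Organic anion carriers had the lowest median of all groups. There were 5, all tested, of which 4 were lower and 1 was higher, and their median log2 fold change was -1.90. Their summed level was 1497 and 1291 normalized CPM in the sham libraries and 564 and 427 in the tenotomy libraries, while the summed level of all genes moved by a factor of 0.845 on the same scale. The 4 genes that were lower carry prostaglandins, sulfated steroids or monocarboxylates.

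Slco2a1 encodes the prostaglandin transporter, which takes up prostaglandins such as PGE2 from the outside of the cell. It was found 103 and 90 times in sham against 23 and 13 times after tenotomy. Both tenotomy counts were thus below both sham counts although the tenotomy libraries were deeper. Normalized CPM averaged 428 ± 28.7 in sham against 43.1 ± 23.7 after tenotomy (SD, n = 2 each), with a log2 change of -3.36 ± 0.26 (SE, adjusted p = 1.34e-07). Slco2a1 (ENSMUSG00000032548) is a gene of chromosome 9 (GRCm38, plus strand, start 102988712, end 103096002), and its exons overlap the small gene n-R5s89 on the other strand.

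Slc10a6, a sodium-dependent carrier of sulfated steroids, was found 126 and 94 times in sham against 49 and 66 times after tenotomy. Normalized CPM averaged 487 ± 86.7 in sham against 131 ± 4.42 after tenotomy (SD, n = 2 each), with a log2 change of -1.90 ± 0.19 (SE, adjusted p = 1.03e-06). Here too the raw counts of the groups did not overlap. Slc16a3 encodes MCT4, the monocarboxylate transporter through which glycolytic cells release lactate. It had 39 and 23 UMIs in sham against 12 and 10 after tenotomy, with a log2 change of -2.43 ± 0.37 (SE, adjusted p = 7.21e-05).

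The related Slc16a1 encodes MCT1, a monocarboxylate transporter found in most cells. Its counts of 70 and 72 in sham and 102 and 86 after tenotomy gave a log2 change of -0.54 (adjusted p = 0.043). It did not pass without sham replicate 2 or without tenotomy replicate 2 (-0.21 without the latter). Nor did it pass with DESeq2 (adjusted p = 0.27), library sizes alone (-0.27, adjusted p = 0.28) or abundance offsets (-0.12, adjusted p = 0.68), and per tube it was 0.40. The exception in the group was Slco3a1, another organic anion transporting polypeptide, with 6 and 6 UMIs in sham against 31 and 36 after tenotomy and a log2 change of 1.51 ± 0.40 (SE, adjusted p = 0.0061). It passed the filter on low counts through the tenotomy libraries only, and the call was lost with DESeq2 (adjusted p = 0.11).

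Both glucose carriers among the 101 genes were lower with edgeR on the normalized scale, but neither passed per tube or with DESeq2 (adjusted p = 0.108 for Slc2a1 and 0.20 for Slc2a3). Slc2a1, which encodes the widely expressed glucose transporter GLUT1, had 24 and 29 UMIs in sham against 24 and 22 after tenotomy. Its log2 change was -1.16 ± 0.32 (SE, adjusted p = 0.0076), against -0.20 per tube. Slc2a3, encoding the high-affinity transporter GLUT3, had 19 and 22 UMIs in sham against 13 and 26 after tenotomy. Its log2 change was -1.04 ± 0.35 (SE, adjusted p = 0.023), and it did not pass without sham replicate 2 (adjusted p = 0.101) or without tenotomy replicate 1 (-0.76, adjusted p = 0.12). The counts of GLUT1 and GLUT3 thus stayed nearly level while the UMIs of the tubes increased. Slc2a4, the insulin-regulated glucose transporter of muscle fibres and fat, had 2 and 0 UMIs in sham against 1 and 4 after tenotomy, far under the limit of 40.

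Of the amino acid carriers that passed the test, 8 of 9 were lower relative to the other transcripts. There were 18, of which 17 were tested, and the median log2 fold change was -0.55, which turned to 0.42 per tube, where the median of all genes was 1.01. Their summed level was 4005 and 3973 normalized CPM in the sham libraries and 2800 and 2768 in the tenotomy libraries. The drop in the sum was carried in part by 1 abundant gene. Slc38a2 encodes SNAT2, a sodium-coupled carrier of small neutral amino acids, and was found 283 and 246 times in sham against 236 and 258 times after tenotomy. Normalized CPM averaged 1173 ± 83.1 in sham against 568 ± 64.5 after tenotomy (SD, n = 2 each), which gave a log2 change of -1.05 ± 0.16 (SE, adjusted p = 6.81e-05). With offsets that remove the dependence on abundance the change was -0.11 (adjusted p = 0.52), and per tube it was -0.099.

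Slc7a8 encodes LAT2, a light chain that exchanges neutral amino acids. It had 22 and 33 UMIs in sham against 6 and 13 after tenotomy, with a log2 change of -2.48 ± 0.39 (SE, adjusted p = 8.93e-05), and was the only amino acid carrier called lower under all 7 scalings and tools. It passed the filter on low counts through the sham libraries only, so it could hardly have been called higher. Slc7a5 encodes LAT1, the other light chain of this kind and the main importer of leucine in growing cells. It had 38 and 41 UMIs in sham against 55 and 64 after tenotomy, a log2 change of -0.37 ± 0.22 (SE) that did not pass (adjusted p = 0.18). The heavy chain that both light chains need at the plasma membrane is Slc3a2, also known as CD98, which had 143 and 136 UMIs in sham against 142 and 231 after tenotomy. Its log2 change was -0.56 ± 0.17 (SE, adjusted p = 0.013), and it did not pass with library sizes alone (adjusted p = 0.17) or DESeq2 (adjusted p = 0.101). Per tube it was called in the other direction, at 0.42 (adjusted p = 0.093), and with the abundance offsets it was at 0.22.

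Slc1a5 encodes ASCT2, a glutamine exchanger, and had 39 and 36 UMIs in sham against 27 and 36 after tenotomy, with a log2 change of -1.21 ± 0.25 (SE, adjusted p = 0.00097). Slc7a1, encoding the arginine and lysine carrier CAT1, had 71 and 61 UMIs in sham against 42 and 74 after tenotomy, and changed by -1.16 ± 0.21 (SE, adjusted p = 0.0003). Neither of these passed per tube. Slc38a1, the SNAT1 gene, was at -0.66 (adjusted p = 0.011), a call that was lost with library sizes alone (-0.38, adjusted p = 0.12), abundance offsets (-0.38, adjusted p = 0.15) and DESeq2 (adjusted p = 0.17) and per tube (0.30, adjusted p = 0.34). Slc6a8, the creatine transporter, changed by -0.86 (adjusted p = 0.049); it did not pass without sham replicate 1 (adjusted p = 0.38) or without tenotomy replicate 1 (adjusted p = 0.13), nor with DESeq2 (adjusted p = 0.30) or library sizes alone (adjusted p = 0.17), and was at 0.099 per tube.

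Slc6a6 encodes the taurine transporter, and its counts of 111 and 115 in sham and 251 and 303 after tenotomy made it the most counted amino acid carrier after Slc38a2. Its log2 change of 0.33 ± 0.16 (SE) lay just outside the threshold (adjusted p = 0.102) and passed under every other scaling tried, among them 0.61 with library sizes alone (adjusted p = 0.0025), though not with DESeq2 (adjusted p = 0.35). Without tenotomy replicate 1 it passed at an adjusted p of 0.067 and without tenotomy replicate 2 at 0.016. Higher in this group was Slc38a6, a less studied member of the SNAT family, with 10 and 8 UMIs in sham against 44 and 37 after tenotomy and a log2 change of 1.21 ± 0.38 (SE, adjusted p = 0.016), which came to 0.92 (adjusted p = 0.1004) without tenotomy replicate 1 and did not pass with DESeq2 (adjusted p = 0.15). The eighth gene that was lower, named only to complete the count, was Slc43a1, at -0.83 (adjusted p = 0.071), which did not pass with any 1 library left out or with DESeq2 (adjusted p = 0.38) and was 0.13 per tube.

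**Figure D2:**
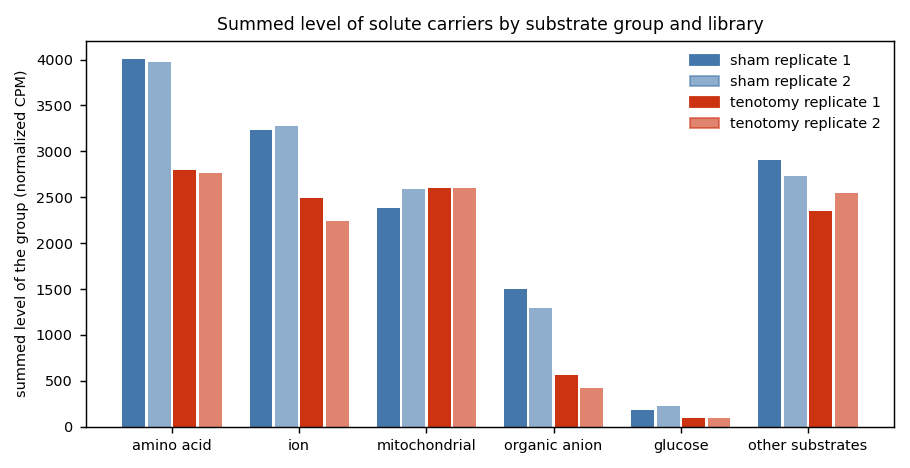
Summed level of each substrate group in normalized CPM (vertical axis, starting at 0), 1 bar per library, all 101 genes but the 3 that are not carriers. The sums of amino acid and organic anion carriers are lower in each tenotomy library than in either sham library. Those of mitochondrial carriers are higher, though only just so against sham replicate 2.

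Mitochondrial carriers, the Slc25 family, bring nucleotides, phosphate and metabolites across the inner membrane. Of 21, 20 were tested; 6 were higher, 2 were lower, and the median log2 fold change was 0.31, above that of all genes under every scaling. Of the 20, 4 passed the filter on low counts through the tenotomy libraries only, among them 1 of the 6 that were higher, Slc25a11. The other 16 had a median of 0.28. Among these 16, the higher Slc25a24, Slc25a37 and Slc25a46 had 1 sham library over the cut and also needed the tenotomy libraries to pass. Summed, the family stood at 2381 and 2587 normalized CPM in the sham libraries and at 2605 and 2598 in the tenotomy libraries. Both tenotomy sums lay above both sham sums, though only just above that of sham replicate 2, and single members moved in both directions.

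Slc25a24 encodes a carrier that exchanges ATP-magnesium for phosphate and is regulated by calcium. It was found 4 and 8 times in sham against 59 and 81 times after tenotomy. Normalized CPM averaged 26.8 ± 13.3 in sham against 159 ± 7.51 after tenotomy (SD, n = 2 each), with a log2 change of 2.56 ± 0.35 (SE, adjusted p = 2.47e-05). Slc25a25, its close relative with the same exchange activity, moved the other way, with 20 and 23 UMIs in sham against 11 and 18 after tenotomy and a log2 change of -1.52 ± 0.35 (SE, adjusted p = 0.0022), which did not pass per tube. Slc25a11, the oxoglutarate carrier that also works in the malate-aspartate shuttle, had 7 and 4 UMIs in sham against 31 and 50 after tenotomy and a log2 change of 1.89 ± 0.41 (SE, adjusted p = 0.0014). Exons of Slc25a11 overlap those of Rnf167 on the other strand.

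The 3 most counted members supply the ATP synthase and export its product. Slc25a3, the phosphate carrier, had 150 and 146 UMIs in sham against 160 and 150 after tenotomy, level in raw counts. Its log2 change was -0.88 ± 0.18 (SE, adjusted p = 0.00075), but 0.067 per tube and -0.14 with abundance offsets (adjusted p = 0.49). Slc25a4 and Slc25a5 encode the adenine nucleotide translocases ANT1, the form of heart and skeletal muscle, and ANT2, the form of dividing cells. Slc25a4 had 68 and 70 UMIs in sham against 164 and 187 after tenotomy, with a log2 change of 0.39 ± 0.17 (SE, adjusted p = 0.079), which did not pass without sham replicate 1 (adjusted p = 0.42), sham replicate 2 (adjusted p = 0.29) or tenotomy replicate 1 (adjusted p = 0.15), or with DESeq2 (adjusted p = 0.36). Slc25a5 had 94 and 98 UMIs in sham against 155 and 133 after tenotomy, with a log2 change of -0.36 (adjusted p = 0.15). It passed as lower without tenotomy replicate 1 (-0.64), but as higher per tube (0.58, adjusted p = 0.019), and was at 0.26 with abundance offsets. Slc25a5 has a pseudogene of its own name in the annotation, with which it may share reads.

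Another gene that was higher was Slc25a46, a protein of the outer mitochondrial membrane, with 6 and 8 UMIs in sham against 27 and 39 after tenotomy and a log2 change of 1.26 (adjusted p = 0.016), not past without sham replicate 1 (1.01, adjusted p = 0.11) or with DESeq2 (adjusted p = 0.19). The other genes called in this family, named to complete the count, were Slc25a39 at 0.65 (adjusted p = 0.019) and Slc25a37, the iron importer mitoferrin 1, at 0.90 (adjusted p = 0.074). Each was missed with at least 1 library left out and with DESeq2 (adjusted p = 0.17 and 0.39).

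Ion carriers had changes in both directions. Of 26, 24 were tested; 4 were higher, 6 were lower, and the median log2 fold change of 0.02 took either sign under the other settings. Their summed level was 3234 and 3275 normalized CPM in sham and 2493 and 2246 after tenotomy. The fall in the sum lay with a few abundant genes.

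Slc39a14 encodes ZIP14, an importer of zinc that also carries iron and manganese. It was found 184 and 168 times in sham against 112 and 104 times after tenotomy, without overlap even in raw counts. Normalized CPM averaged 781 ± 28.2 in sham against 251 ± 57.0 after tenotomy (SD, n = 2 each), with a log2 change of -1.65 ± 0.18 (SE, adjusted p = 2.12e-06). Slc41a1, a magnesium carrier, had 93 and 113 UMIs in sham against 54 and 72 after tenotomy and a log2 change of -1.67 ± 0.19 (SE, adjusted p = 3.14e-06). Slc9a9 encodes NHE9, a sodium-proton exchanger of endosomes, and was the ion carrier called higher under all 7 scalings and tools, with 16 and 11 UMIs in sham against 64 and 65 after tenotomy and a log2 change of 1.30 ± 0.30 (SE, adjusted p = 0.002).

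Zinc is carried into the cytoplasm by the Slc39 (ZIP) family and out of it by the Slc30 (ZnT) family. Over both families 12 genes were tested, of which 3 were higher and 2 were lower, with a median log2 fold change of 0.06. Of the 3 that were higher, Slc30a1 and Slc39a13 passed the filter on low counts through the tenotomy libraries only, and of the lower ones Slc39a5 passed it through the sham libraries only, so that each of these could hardly have been called in the other direction. Slc30a1 encodes ZnT1, the zinc exporter of the plasma membrane, whose transcription rises with zinc. It had 4 and 2 UMIs in sham against 18 and 20 after tenotomy, and a log2 change of 1.67 ± 0.51 (SE, adjusted p = 0.014). The call was lost without sham replicate 2 (1.26, adjusted p = 0.18), tenotomy replicate 1 (adjusted p = 0.16) or tenotomy replicate 2 (adjusted p = 0.12), with DESeq2 (adjusted p = 0.21) and with abundance offsets (0.41, adjusted p = 0.64).

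Slc39a13, or ZIP13, a zinc carrier of the Golgi and vesicles, had 5 and 3 UMIs in sham against 19 and 34 after tenotomy, and a log2 change of 1.74 (adjusted p = 0.0078), which did not pass without tenotomy replicate 2 (1.496, adjusted p = 0.15) or with DESeq2 (adjusted p = 0.13). Its exons overlap those of Psmc3 on the other strand. Slc39a5 was at -1.28 (adjusted p = 0.0165), and did not pass without sham replicate 1 (adjusted p = 0.17) or tenotomy replicate 2 (adjusted p = 0.185), per tube (-0.33) or with DESeq2 (adjusted p = 0.24). Slc39a1, the most counted zinc carrier after Slc39a14, had 88 and 48 UMIs in sham against 148 and 141 after tenotomy, and its normalized values overlapped between the groups (log2 fold change 0.14, adjusted p = 0.64). The sign of its change turned to -0.24 without sham replicate 2 and to -0.056 without tenotomy replicate 1. It was called higher with abundance offsets (0.66, adjusted p = 0.013) and per tube (1.09, adjusted p = 0.0016). It may share reads with the pseudogene Slc39a1-ps.

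Slc12a2, the sodium, potassium and chloride cotransporter NKCC1, had 14 and 30 UMIs in sham against 47 and 57 after tenotomy (log2 fold change 0.28, adjusted p = 0.49), which passed without sham replicate 2 (0.92, adjusted p = 0.069) and was -0.23 without sham replicate 1. Other called ion carriers, outside the rule for naming and chosen after their values were seen, were Slc4a7 at -0.90 (adjusted p = 0.00066), Slc11a2 at -0.88 (adjusted p = 0.042) and Slc39a9 at 1.05 (adjusted p = 0.045), the last 2 missed with at least 1 library left out. Per tube the change was 0.061 for Slc4a7 and 0.072 for Slc11a2, and Slc11a2 and Slc39a9 did not pass with DESeq2 (adjusted p = 0.30 and 0.28).

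Carriers of other substrates numbered 26, all tested. Of these, 10 were higher and 5 were lower, and the median log2 fold change was 0.52, the same with Slc35c2 set to its bound. Among them, 8 passed the filter on low counts through the tenotomy libraries only, and these held 7 of the 10 higher calls. The other 18 had 3 higher, 5 lower and a median of -0.095, so the sign of the group's median rested on genes that passed the filter where they were high. Of the 3 higher genes, Slc44a2 and Slc35a1 had 1 sham library over the cut and also needed the tenotomy libraries to pass.

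Slc43a3, a purine nucleobase carrier, was the most counted gene of this group, with 273 and 255 UMIs in sham against 153 and 166 after tenotomy. Normalized CPM averaged 1172 ± 23.4 in sham against 367 ± 43.6 after tenotomy (SD, n = 2 each), with a log2 change of -1.68 ± 0.16 (SE, adjusted p = 6.93e-07). Slc29a1 encodes ENT1, which lets nucleosides pass in both directions, and had 45 and 28 UMIs in sham against 139 and 214 after tenotomy. Normalized CPM averaged 161 ± 48.8 in sham against 397 ± 50.9 after tenotomy (SD, n = 2 each), which gave a log2 change of 1.30 ± 0.21 (SE, adjusted p = 0.00013). The nucleobase carrier and the nucleoside carrier thus moved in opposite directions, each under all 7 scalings and tools. Exons of Slc29a1 overlap Gm17080 on the other strand.

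Slc44a2, a choline transporter-like protein, had 6 and 9 UMIs in sham against 74 and 95 after tenotomy. Normalized CPM averaged 33.4 ± 10.4 in sham against 192 ± 0.0191 after tenotomy (SD, n = 2 each), with a log2 change of 2.52 ± 0.31 (SE, adjusted p = 7.68e-06). Slc5a3 encodes SMIT1, which takes up myo-inositol with sodium and is known to respond to osmotic stress, and had 50 and 42 UMIs in sham against 16 and 32 after tenotomy. Its log2 change was -1.90 ± 0.27 (SE, adjusted p = 3.36e-05), and its exons overlap those of Mrps6 on the same strand, so the assignment of reads between the 2 genes is uncertain. Slc15a2, encoding the peptide transporter PEPT2, had 29 and 25 UMIs in sham against 9 and 20 after tenotomy and a log2 change of -1.86 ± 0.35 (SE, adjusted p = 0.00043).

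The Slc35 family carries nucleotide sugars into the Golgi and endoplasmic reticulum, where glycans are built. All 12 of its genes were tested, of which 5 were higher and 2 were lower, with a median log2 fold change of 0.62. Of the 5 higher genes, 4 passed the filter through the tenotomy libraries only, among them Slc35a5 and Slc35c2. The other 8 genes had 1 higher, 2 lower and a median of 0.058. The median of all tested genes, 0.051, is not a like value, since it includes 1095 genes that passed through the tenotomy libraries only. The 1 higher gene of these 8, Slc35a1, had 1 sham library over the cut and also needed the tenotomy libraries to pass. Slc35a5 had 3 and 1 UMIs in sham against 22 and 35 after tenotomy, with a log2 change of 2.81 ± 0.56 (SE, adjusted p = 0.00071). Slc35c2 was the only one of the 101 genes with no UMI in a group. It had 0 and 0 UMIs in sham against 17 and 31 after tenotomy, which, with the floor of 3 counts in each sham library, is at least 4.10-fold higher. It passed the test with an adjusted p of 0.00011 but not with abundance offsets. The remaining members called in the 26 genes, not described one by one, were each missed with at least 1 library left out.

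**Figure D3:**
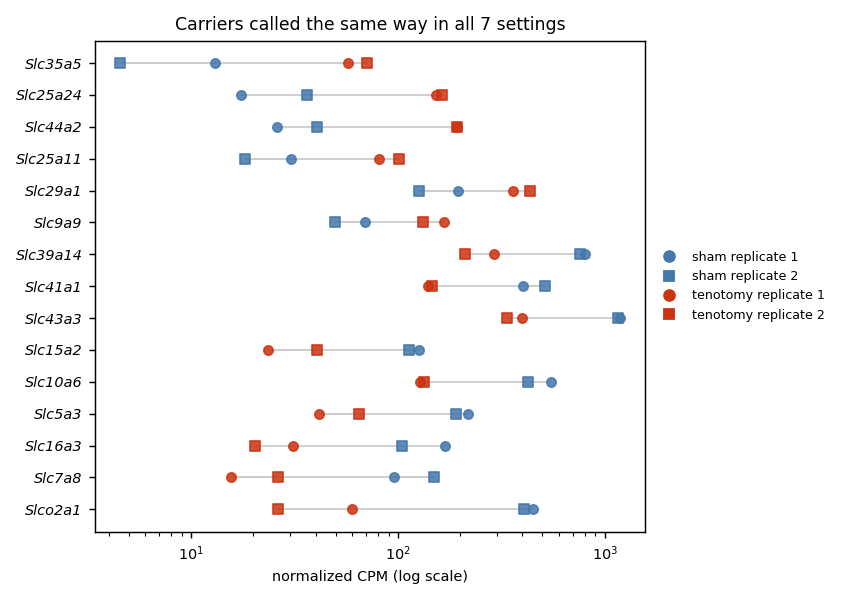
Normalized CPM (horizontal log axis) of the 15 carriers with the same call under all 7 scalings and tools, 1 point per library. In every row the 2 tenotomy libraries lie on 1 side of both sham libraries, above for 6 genes from Slc35a5 to Slc9a9 and below for 9 genes from Slc39a14 to Slco2a1.

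Another 3 genes met the name rule but do not encode carriers. Slc9a3r1 encodes NHERF1, a scaffold that binds membrane proteins, and had 20 and 33 UMIs in sham against 18 and 16 after tenotomy and a log2 change of -1.59 (adjusted p = 0.0019). Slc4a1ap encodes kanadaptin, named after a binding partner, and had 7 and 3 UMIs in sham against 17 and 31 after tenotomy and a log2 change of 1.28 (adjusted p = 0.038), not past without sham replicate 2 (adjusted p = 0.31) or tenotomy replicate 2 (adjusted p = 0.33), or with DESeq2 (adjusted p = 0.29). Slc7a6os had 16 and 15 UMIs in sham against 23 and 25 after tenotomy (log2 fold change -0.33, adjusted p = 0.46). Without these 3 genes, 22 carriers were higher and 27 lower.

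A share of UMIs within a pair of related carriers needs no scaling between libraries, so pairs of one family, or with a shared substrate or complex, were set side by side. No test was made, since 2 against 2 libraries cannot reach an exact p under 0.333, and each interval covers counting error only (exact Clopper-Pearson, 95%). For the monocarboxylate transporters, Slc16a1 (MCT1) took 64.2% (54.5 to 73.2) and 75.8% (65.9 to 84.0) of the UMIs of Slc16a1 and Slc16a3 in sham. After tenotomy it took 89.5% (82.3 to 94.4) and 89.6% (81.7 to 94.9). Both tenotomy shares were higher, though their intervals overlapped that of sham replicate 2.

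Of the adenine nucleotide translocases, Slc25a4 took 42% (34.3 to 49.97) and 41.7% (34.1 to 49.5) of the pair's UMIs in sham, and 51.4% (45.8 to 57.0) and 58.4% (52.8 to 63.9) after tenotomy. The share of ANT1 was higher in both tenotomy libraries, and the interval of tenotomy replicate 1 overlapped those of both sham libraries. For the neutral amino acid exchangers Slc1a4 (ASCT1) and Slc1a5 (ASCT2), Slc1a4 took 11.4% (3.79 to 24.6) and 10% (2.79 to 23.7) in sham and 30.8% (17.02 to 47.6) and 34.5% (22.2 to 48.6) after tenotomy, from 5, 4, 12 and 19 UMIs of Slc1a4, with overlapping intervals. The taurine transporter Slc6a6 took 81.0% (73.4 to 87.2) and 87.8% (80.9 to 92.9) of the UMIs of Slc6a6 and Slc6a8 in sham and 93.3% (89.6 to 96.0) and 91.8% (88.3 to 94.5) after tenotomy, and the intervals of sham replicate 2 and both tenotomy libraries overlapped. Slc38a1 took 16.3% (12.5 to 20.6) and 19.6% (15.3 to 24.5) beside Slc38a2 in sham, and 21.3% (16.8 to 26.4) and 23.2% (18.8 to 28.1) after tenotomy, with overlapping intervals. With abundance offsets, which correct each gene by its abundance, the order turned, and Slc38a1 was at -0.38 and Slc38a2 at -0.11.

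In the pair of cationic amino acid carriers, Slc7a1 took 78.9% (69.0 to 86.8) and 80.3% (69.5 to 88.5) beside Slc7a2 in sham and less, 61.8% (49.2 to 73.3) and 74.0% (64.3 to 82.3), after tenotomy, with overlapping intervals. Slc7a2 itself did not pass (log2 fold change -0.34, adjusted p = 0.43). The shares overlapped between the groups for the other 3 pairs, which were the heavy chain Slc3a2 with Slc7a5, the glucose carriers Slc2a1 with Slc2a3, and the phosphate carriers Slc20a1 with Slc20a2.

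**Figure D4:**
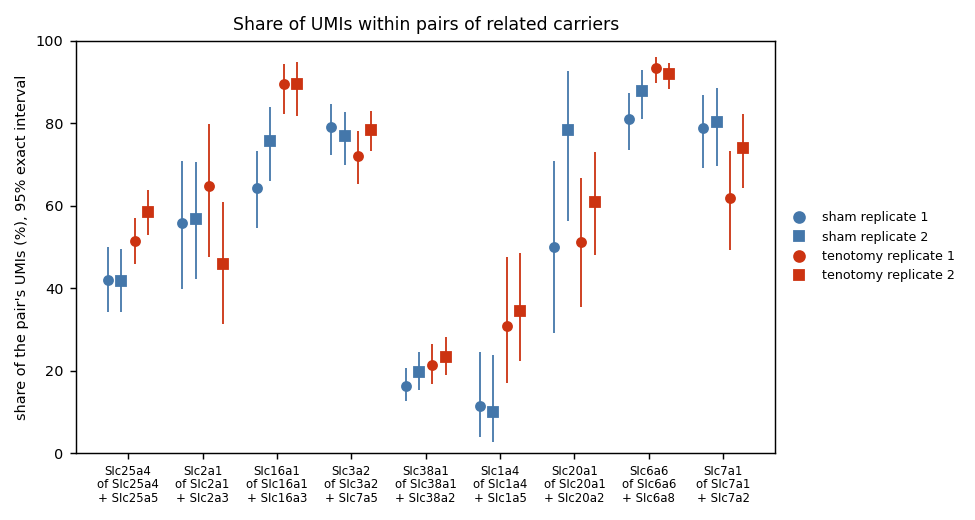
Share of a pair's UMIs (vertical axis, percent) taken by the first gene of each of 9 pairs, 1 point per library with its 95% exact interval for counting error. The shares of Slc25a4, Slc16a1, Slc38a1, Slc1a4 and Slc6a6 are higher in both tenotomy libraries, that of Slc7a1 is lower, and 3 pairs overlap.

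The order of the substrate groups was compared across scalings. Organic anion carriers had the lowest median log2 fold change and mitochondrial carriers the highest of the 5 groups under each of the 7 scalings and tools. The median of organic anion carriers ranged from -1.90 to -0.93, the latter per tube. That of mitochondrial carriers was 1.27 per tube, against 1.01 for all genes there. A median of the glucose group rests on 2 genes.

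**Figure D5:**
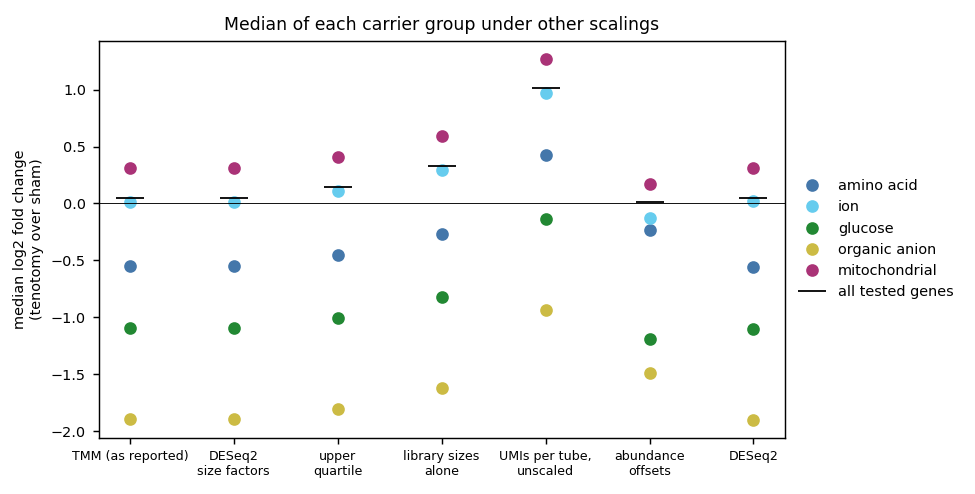
Median log2 fold change of each substrate group (coloured points) and of all tested genes (black dashes) under 7 scalings and tools. The whole pattern moves up when UMIs per tube are used, where the median of amino acid carriers turns positive and that of organic anion carriers stays at -0.93; the ion carriers are below 0 with abundance offsets.

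Markers of other cell types were measured beside these results. The 9 satellite cell markers were all detected, with 1417 and 1164 UMIs in sham against 1667 and 1852 after tenotomy, led by Sdc4, and Pax7 itself had 118, 107, 108 and 137. In normalized CPM their sum was lower after tenotomy, 6168 and 5273 in sham against 4334 and 3750, with 5 of the 9 genes called lower and 2 higher (26.3% and 25.8% of all tested genes). Lower were, among others, Calcr (-2.60, adjusted p = 6.76e-06) and Chodl (-1.76, adjusted p = 1.1e-06). Other markers rose: Cdh15 was higher (0.47, adjusted p = 0.049), and Itga7 averaged 366 normalized CPM in sham against 585 after tenotomy. Cxcr4 lay above sham in both tenotomy libraries but did not pass (0.30, adjusted p = 0.21). The 12 leukocyte markers summed to 2 and 7 UMIs in sham against 78 and 212 after tenotomy, with Lyz2, the most abundant, at 0, 0, 17 and 38 and Ptprc (CD45) at 0, 1, 1 and 4, and 11 of the 12 had higher normalized values in both tenotomy libraries, as had 37.5% of all tested genes. Only 2 of the 12, Lyz2 and Cd74, had enough counts to be tested. Fibro-adipogenic markers (8 genes, led by Col3a1) summed to 809 and 742 UMIs in sham against 1148 and 1259 after tenotomy, which in normalized CPM was lower, 3521 and 3361 against 2985 and 2550. Within that list Col3a1 (-0.53, adjusted p = 0.013) and Dcn (-0.38, adjusted p = 0.085) were lower, and Ly6a, which encodes Sca-1, had 1 and 0 UMIs in sham against 22 and 41 after tenotomy and was higher (adjusted p = 0.00011), though it passed the filter through the tenotomy libraries only. Mural markers (8 genes) summed to 181 and 161 UMIs in sham against 478 and 694 after tenotomy, of which Acta2 took 115, 109, 356 and 493, while Rgs5 was also higher (13, 4, 38 and 86 UMIs, 1.88 in log2, adjusted p = 0.0016) and Tagln was lower (-0.61, adjusted p = 0.045). Transcripts of the muscle fibre (7 genes, led by Acta1) were at 325 and 175 UMIs in sham against 1076 and 1275 after tenotomy.

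Endothelial markers (7 genes, led by Tek) were at 18, 16, 44 and 43 UMIs in the same order, or 78.4, 72.5, 114 and 87.1 normalized CPM, with Tek itself lower after tenotomy (-1.41, adjusted p = 0.015), and the 4 Schwann cell markers in the table (led by Ngfr) at 5, 8, 22 and 24. Erythroid globin genes (4, led by Hbb-bs) were at 118, 4, 17 and 231 UMIs, high in 1 library of each group. In normalized CPM the sums of leukocyte, mural, muscle fibre, endothelial and Schwann cell markers were higher in both tenotomy libraries and those of satellite cell and fibro-adipogenic markers were lower, and their part in the changes of the carriers was not tested. Slc11a1, the metal carrier of macrophage phagosomes, had 0, 0, 2 and 4 UMIs, a gene outside the rule for naming that was chosen after its values were seen.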

How the data were processed

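MuSC libraries were made by CEL-Seq2. Per the labels and the methods, the authors extracted UMIs with UMI-tools (version 1.0.0), aligned reads to GRCm38 with HISAT2 (version 2.1.0), assigned them with featureCounts (version 1.6.4) and deposited counts of UMIs per gene, not normalized. The annotation release and strand setting are not given in the sources used here. All 19353 gene identifiers were in GENCODE M21, used for positions; exons of 34 of the 101 genes overlap another gene. Whether libraries came from separate animals is not stated.

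Genes were filtered by filterByExpr of edgeR (version 4.0.16, R version 4.3.3; minimum count 10, minimum total 15), with library size taken over the genes kept, scaled by TMM and tested with glmQLFit and glmQLFTest over all 4 libraries. P-values were adjusted by Benjamini-Hochberg over 7228 genes with the study's threshold of 0.1; 3732 genes had an unadjusted p under 0.05. The prior count was 0.125 and the common coefficient of variation 9.50%. The fit was checked on simulated counts. Shares have exact Clopper-Pearson intervals (95%) on the raw counts. The floor of 3 counts was used only for the limits in normalized CPM and the bound of Slc35c2. Libraries of a group differed by 1.31 (sham) and 1.50 (tenotomy) chi-square per degree of freedom, against 6.34 to 7.86 between groups.

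Members, substrate groups, lists and alternatives were chosen with earlier results of these data known. Genes named were a fixed list, the 3 largest rises and falls past the threshold without overlap and the 2 most counted genes in each substrate group, the pairs, genes at the edge of the limit of 40, genes that are not carriers and genes at 0 in a group; others are marked. Alternatives were other scalings (DESeq2 size factors, library sizes, upper quartile, UMIs per tube, abundance offsets), DESeq2 (version 1.42.0), no filter or another filter, a threshold of 0.05, a replicate block, thinning, other limits on members, omission of mitochondrial and the top 20 genes, and each library left out. Single values of a few genes are not reported here, though the genes are part of the counts.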

Additional observations from a re-analysis of the deposited data

How the results depend on the processing

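Against 23 of the 97 tested genes higher and 28 lower, UMIs per tube gave 55 and 9, DESeq2 gave 8 and 16, and a limit of 80 UMIs on the members left 11 higher and 22 lower of 59 tested. Over all 7228 tested genes, UMIs per tube gave 4481 higher and 331 lower, and DESeq2 gave 762 and 1049. Of the calls made among the carriers, 45.1% were of higher genes, 61.5% with library sizes alone, 85.9% per tube and 33.3% with DESeq2. Among the calls of all tested genes the shares were 49.6%, 66.6%, 93.1% and 42.1%, so they shifted in the same directions. Leaving out 1 library gave 14 to 19 higher and 22 to 25 lower. The median of amino acid carriers was -0.27 with library sizes alone, -0.45 with upper-quartile factors, 0.42 per tube, -0.23 with abundance offsets, -0.36 when thinned and -0.65 to -0.45 with a library left out. Ion carriers were at 0.29 with library sizes alone, 0.97 per tube, -0.13 with the offsets and -0.092 to 0.33 with a library left out. Glucose carriers were at -0.82 with library sizes alone, -0.14 per tube, -0.83 when thinned and -1.28 to -0.98 with a library left out. Organic anion carriers were at -1.62 with library sizes alone, -0.93 per tube and -1.49 with the offsets, and mitochondrial carriers at 0.59 with library sizes alone, 1.27 per tube and 0.14 to 0.46 with a library left out. Other size factors shift all genes together by construction, while the abundance offsets move each gene by its abundance, and the cause of the other differences was not tested.

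Of 765 values of 48 named genes under alternatives, 664 kept their direction and side of the threshold, 58 lost the call, 18 gained one and 25 changed sign, 6 of the latter in genes past the threshold. Per tube the log2 change was 0.40 for Slc16a1, 0.067 for Slc25a3, 0.73 for Slc25a38, 0.58 for Slc25a5, 0.30 for Slc38a1, 0.42 for Slc3a2, 0.099 for Slc6a8, 0.61 for Slc7a2, 0.59 for Slc7a5 and 0.63 for Slc7a6os. With the offsets it was -0.18 for Slc1a4, -0.044 for Slc20a1, 0.26 for Slc25a5 and 0.22 for Slc3a2. Slc20a1 was at -0.016 with at least 10 counts in every library of a group and -0.41 when thinned, and Slc25a38 at 0.051 with library sizes alone and 0.059 when thinned. With a library left out, the log2 change spanned -0.23 to 0.92 for Slc12a2, -0.27 to 0.36 for Slc20a1, -0.034 to 1.17 for Slc20a2, -0.70 to 0.34 for Slc25a38 and -0.24 to 0.58 for Slc39a1. A left-out library leaves 1 sample in its group, assumed to vary like the others.

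Replicate numbers were not taken to pair the libraries. Deviations of same-numbered libraries correlated at -0.035 over genes. This cannot show whether libraries were paired, since those of a group differed little beyond counting error. In its tissue counts the paper used contralateral sham-operated muscle, and it does not say whether sequenced sham and tenotomy cells shared mice. With the replicate number as a block, 22 of the genes were higher and 27 lower. The medians were then -0.57 for amino acid, 0.016 for ion, -1.11 for glucose, -1.88 for organic anion and 0.30 for mitochondrial carriers. Depth limits what can be said of carriers near 40 UMIs, where a count of 3 is worth 6.08 to 13.6 normalized CPM.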

Other observations

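Other genes of membrane transport were counted from lists chosen, like the carriers, with earlier results known. In mitochondrial membrane transport by genes not named Slc25, 8 of 15 tested genes were higher after tenotomy and 0 lower. Their median log2 fold change was 0.72, against 25.8% of all tested genes higher and a median of 0.05. Vdac1, a channel of the outer membrane, had 41 and 36 UMIs in sham against 151 and 179 after tenotomy, and a change of 1.14 ± 0.19 in log2 (SE, adjusted p = 0.00015). Ucp2, a carrier of the Slc25 fold under another name, had 7 and 0 UMIs in sham against 43 and 76 after tenotomy (3.08, adjusted p = 0.00021). It was the 1 gene of this list that passed the filter on low counts through the tenotomy libraries only, with no sham library over the cut. Mcu, the pore of the calcium uniporter, had 13 and 5 UMIs in sham against 64 and 57 after tenotomy (1.79, adjusted p = 0.00098). Mcu and the likewise higher Sfxn1 and Sfxn3 had 1 sham library over the cut, so they also needed the tenotomy libraries to pass. Of pumps and other transporters, 6 of 14 tested genes were lower and 2 higher, against 26.3% lower and 25.8% higher of all tested genes. Among the lower pumps, Atp2a3 passed the filter through the sham libraries only. Atp2b1, a calcium pump of the plasma membrane, had 157 and 127 UMIs in sham against 175 and 181 after tenotomy (-0.62, adjusted p = 0.0074), while Cd36, a fatty acid carrier, had 2 and 2 UMIs in sham against 24 and 37 after tenotomy (2.91, adjusted p = 0.00037) and passed the filter through the tenotomy libraries only.

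In the amino acid response and supply list, 6 of 10 tested genes were lower and 3 were higher, beside the same shares of all tested genes (26.3% and 25.8%). Of the lower ones, Sesn2 passed the filter on low counts through the sham libraries only. The transcription factor Atf4, which induces several amino acid carriers when amino acids run short, had 309 and 261 UMIs in sham against 197 and 244 after tenotomy (-1.33, adjusted p = 5.69e-06). Psat1, an enzyme of serine synthesis, had 18 and 13 UMIs in sham against 125 and 177 after tenotomy (2.31, adjusted p = 1.1e-06), and Shmt2, a mitochondrial enzyme of serine use, had 11 and 15 UMIs in sham against 61 and 74 after tenotomy (1.41, adjusted p = 0.0008). Of 11 tested genes of amino acid sensing by mTORC1, 4 were higher and 1 was lower, beside 25.8% and 26.3% of all tested genes, and 2 of the higher genes, Lamtor4 and Mtor, passed the filter on low counts through the tenotomy libraries only. Lamtor1, the membrane anchor of the Ragulator complex, had 11 and 11 UMIs in sham against 54 and 80 after tenotomy (1.63, adjusted p = 0.0003). Genes named in this section were chosen after their values were seen. Their changes are given on the TMM scale only, without values per tube or with abundance offsets.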
